A study of Mus musculus with 2 samples.

Results

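Single-cell RNA-seq libraries of the whole mouse spinal cord hold many barcodes in which a large share of the molecules comes from the mitochondrial genome. The barcodes described here were chosen on that measured share. They had 200 to 4000 detected genes and took 10% or more, but under 25%, of their unique molecular identifiers (UMIs, 1 per captured RNA molecule) from the mt- genes. Of 52340 deposited barcodes, 20075 met these limits (the band), 8458 in the SMA library and 11617 in the Con library. They are set beside 17043 barcodes with the same gene limits and a share under 10% (6787 and 10256). The study kept that side of the limit for its own cell atlas, but these barcodes are not the same set as the atlas cells. The study also removed a cluster of high ribosomal share, and SMA barcodes also listed in Con were left out here.

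The mice were of strain FVB at postnatal day 4 and belonged to the severe Taiwanese model of spinal muscular atrophy, a motor neuron disease caused by loss of the SMN protein. SMA mice were mSmn-/-, hSMN22tg/0 and Con mice were mSmn+/-, hSMN22tg/0, so that both groups carried the human SMN2 transgene and the controls had lost 1 mouse Smn allele. Cords were dissociated with trypsin and collagenase II and profiled by droplet-based 3′ sequencing. Each library pooled the cords of littermates, the sexes of which were not stated, and each group was 1 library. No difference between SMA and Con could therefore be set against a spread between animals, and intervals cover counting error only.

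The mitochondrial genome encodes subunits of the respiratory chain, whereas most subunits are made from nuclear genes and imported. A high mitochondrial share in a droplet is widely used to discard damaged cells, because cytoplasmic and nuclear RNA can be lost while mitochondria stay behind. Some cell types also hold more mitochondrial RNA than others. Malat1 and Neat1 are long RNAs that stay in the nucleus, and immediate early genes such as Fos are switched on within minutes of a stimulus, tissue dissociation included.

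Some properties of the libraries touch every result below. About 6000 cells had been added to each channel, whereas the files held 26921 (SMA) and 25419 (Con) barcodes, and the band alone held 1.41 and 1.94 times the cells added. The libraries shared 8163 barcode sequences, of which 98.7% were deeper in Con (median 7609 against 1369 UMIs). The SMA copies were left out, which removed 874 of 9332 SMA barcodes from the band (9.37%) and took the SMA reference under 10% from 13296 to 6787 barcodes. In Con, shared barcodes made up 6.07% of the band and 64.0% of the barcodes under 10%, and they were the deeper ones there (median 6939 nuclear UMIs against 1362). Xist, the RNA of the inactive X chromosome, had 5 UMIs in the named classes of the SMA band and 3268 in those of Con, so the sex of the pooled animals and the genotype cannot be told apart.

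The band held 46.3% of the SMA barcodes within the gene limits (exact 95% interval 45.6 to 47.0) and 47.9% of those of Con (47.2 to 48.5). A further 3019 SMA and 2399 Con barcodes had shares of 25% or more. The band barcodes were shallow. Their median total was 1250 UMIs over 621 genes in SMA and 1053 UMIs over 557 genes in Con, against 6109 UMIs over 2396 genes and 5638 UMIs over 2121 genes under 10%. Together they carried 16.4% and 17.7% of all UMIs of their libraries.

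Against barcodes of 5 to 10%, both compartments held fewer molecules in the band. Con barcodes of 0 to 5% had a median of only 74 mitochondrial UMIs, fewer than the band, and the direction for mitochondrial UMIs within classes depended on the treatment of shared barcodes, as given with the class values. Since the band was chosen on the ratio of mitochondrial to all molecules, a larger difference in the nuclear one is set by the rule, and the counts are given as a description. In SMA the median nuclear UMI count was 5410 at shares of 5 to 10%, 1920 at 10 to 15%, 1036 at 15 to 20% and 792 at 20 to 25%. The mitochondrial count was 416, 273, 224 and 232 over the same steps. In Con the nuclear medians were 5681, 1280, 827 and 636, and the mitochondrial ones 425, 187, 175 and 183. Within the band, a higher share thus went with fewer nuclear molecules, while the medians of mitochondrial molecules lay between 175 and 273. The lowest totals in the band were 737 UMIs in SMA and 519 in Con, and how far this floor sets these medians was not tested. Barcodes just under the lower limit (9 to 10%) had medians of 4262 nuclear UMIs in SMA and 3626 in Con, and those just over it (10 to 11%) 3330 and 2316. At the upper limit the medians were 741 and 578 at 24 to 25%, and 716 and 578 at 25 to 26%. Depth thus differed more across the lower limit than across the upper one, as the plot of barcodes by mitochondrial share shows. Median totals at 24 to 25% and 25 to 26% were 982 and 965 in SMA, and 766.5 and 773.5 in Con. These lay nearer the lowest totals of the band, which left depth less room to differ.

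**Figure D1:**
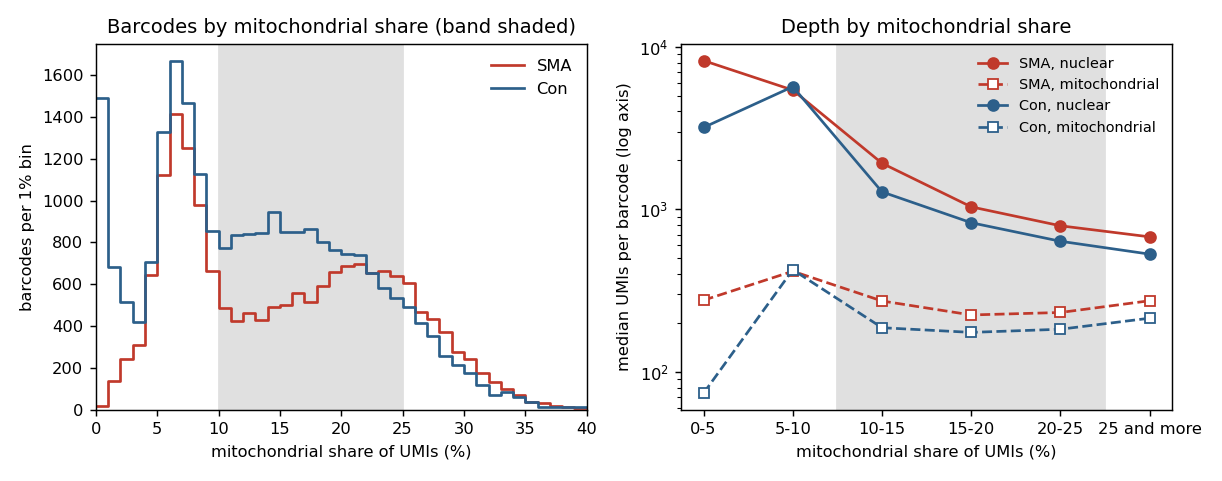
Number of barcodes per 1% bin of mitochondrial share (left) and median nuclear and mitochondrial UMIs per barcode on a log axis (right) in the SMA and Con libraries, with the band shaded. The bin of 6% holds 1414 SMA and 1666 Con barcodes, SMA has a second peak of 696 barcodes at 21% within the band, and nuclear medians are lower toward the upper end of the band.

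All barcodes under 25% were clustered together without the mitochondrial genes and the gene lists used below, and clusters were named from marker genes. Names are written with "-like". A name was given to 5082 SMA (60.1%) and 7486 Con (64.4%) barcodes of the band. The named barcodes expressed the markers of their class. Since clusters were named from these markers, the levels below describe the classes and do not test the names. The 12 microglial markers, among them the receptors P2ry12 and Cx3cr1, summed to 16099 UMIs per 1000000 nuclear UMIs (nuclear CPM) in the microglia-like band barcodes of SMA and 15660 in those of Con, against 25757 and 25604 under 10%. The 13 astrocyte markers, such as the water channel Aqp4, summed to 12259 and 12205 nuclear CPM, against 13268 and 12712. For the 12 oligodendrocyte markers the sums were 62202 and 83047 nuclear CPM, against 90160 and 84815. In the microglia-like, astrocyte-like and COP-like classes, and in fibroblast-like barcodes of Con, the band and the barcodes under 10% lay mostly in different clusters. Of microglia-like barcodes 91.8% (SMA) and 94.6% (Con) of the band were in 1 cluster and 75.4% and 68.4% of those under 10% in another. The other classes compared below had the same main cluster in both sets. In the 9 classes compared below no defining marker was at 0 in the band, other than 1 of 10 ependymal markers in Con.

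Among the named classes, the oligodendrocyte-like one had the highest share of its barcodes in the band in both libraries. An unnamed cluster of 457 barcodes, whose best-matching class was oligodendrocyte, is not counted in it. That cluster had 116 SMA and 324 Con barcodes under 10%, and 2 and 15 in the band, so the share rests on the naming. Of the barcodes like oligodendrocytes, the cells that make myelin, 517 lay in the band and 73 under it in SMA (87.6%, 84.7 to 90.2), and 761 and 130 in Con (85.4%, 82.9 to 87.7). Shares above 50% were also found in both libraries for COP-like barcodes (differentiation-committed oligodendrocyte precursors), with 55.3% in SMA and 63.6% in Con, microglia-like barcodes (59.97% and 62.3%) and astrocyte-like barcodes (52.7% and 60.3%). Mural-like barcodes, the pericytes and muscle cells of vessels, had 64.1% and 55.4%. Shares were lower in endothelial-like (35.3% and 42.2%) and ependymal-like (27.7% and 33.4%) barcodes. They were below 10% in OPC-like (9.06% and 8.48%) and erythroid-like (7.18% and 8.28%) barcodes of both libraries. The few monocyte-like barcodes differed between libraries, with 8 (29.6%) in the SMA band and 10 (3.44%) in the Con band. Fibroblast-like barcodes differed between libraries, with 50.4% in SMA and 20.4% in Con, and 70.5% of the Con barcodes under 10% lay in a cluster with nearly no SMA barcodes. Because the mitochondrial share is what chose the band, these shares describe the classes and were not tested.

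**Figure D2:**
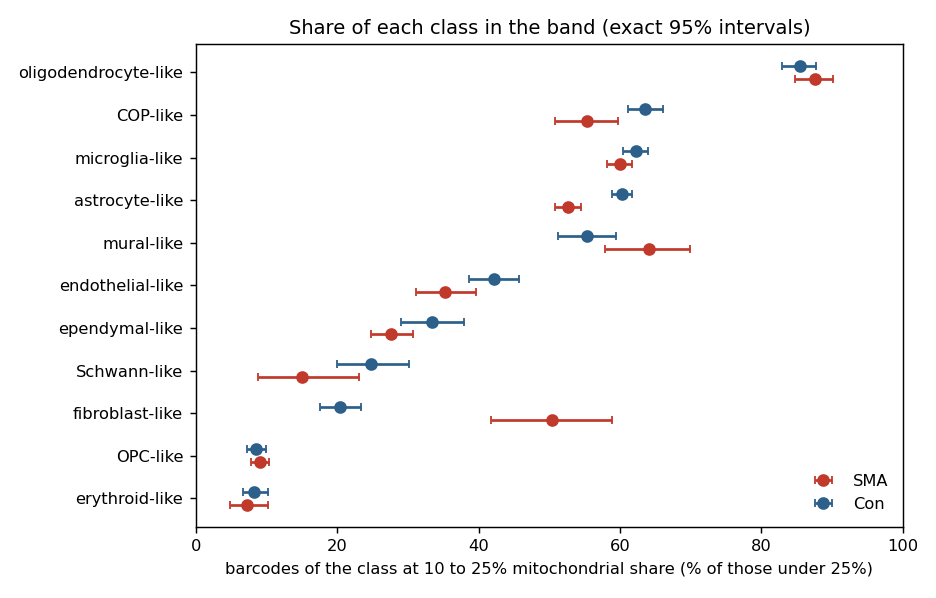
Percent of each class's barcodes (those under 25% mitochondrial share) that lie in the band, in SMA and Con, with exact 95% intervals as bars. Oligodendrocyte-like barcodes lie above 85% in both libraries and OPC-like and erythroid-like barcodes below 10%.

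The low share of OPC-like barcodes depended on the naming and, in Con, on the shared barcodes, since it became 26.5% in Con with those left out of both libraries. OPCs are the dividing precursors of oligodendrocytes. A cluster that stayed unnamed, with 981 SMA and 1145 Con barcodes of the band, had OPC markers at 1451 and 1565 nuclear CPM, between the 458 and 480 of the other large unnamed cluster and the 2935 and 2855 of the OPC-like barcodes of the band. At a finer clustering part of it took the OPC name, and the OPC-like share in the band became 29.8% in SMA and 34.9% in Con. The shares of oligodendrocyte-like barcodes were 79.2% and 72.7% at that setting, and those of COP-like barcodes 35.4% and 50.5%.

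The unnamed barcodes made up 39.9% of the band in SMA and 35.6% in Con, and nearly all lay in 2 clusters. The larger, with 2393 and 2947 band barcodes, led with Slc24a5, Abhd2, Ttc9b, Sfxn5 and Mobp, and detected too few markers of any class for a name. It carried markers of several classes at once. Oligodendrocyte markers stood at 6865 and 8978 nuclear CPM, astrocyte markers at 4248 and 3886, and microglial markers at 3013 and 2489. Its 4 haemoglobin genes summed to 62806 and 105865 nuclear CPM, against 10655 and 17267 over the named band barcodes, and Malat1 stood at 2774 and 3714 nuclear CPM. Over 8451 and 9249 genes, the log profile of this cluster correlated with that of the sum of all named band barcodes of the same library at Pearson's r of 0.96 and 0.97, where both sums share a library and any RNA free in it. For the smaller unnamed cluster r was 0.86 in both libraries.

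Within classes, band barcodes had several times fewer nuclear UMIs. Microglia-like barcodes had a median of 1086 nuclear UMIs in the SMA band against 6065 under 10%, which was 5.58-fold lower, and 835 against 5953 in Con (7.13-fold). Astrocyte-like barcodes were 4.43-fold and 5.68-fold lower, and COP-like barcodes 5.93-fold and 7.55-fold. Ependymal-like and mural-like barcodes differed less, by 2.40 and 2.43-fold in SMA and 2.53 and 2.62-fold in Con. OPC-like barcodes were 1.49-fold and 1.55-fold lower. In Con barcodes not listed in SMA, these classes lay closer together. Medians there were 827 in the band against 1761.5 under 10% for microglia-like and 903 against 1839.5 for COP-like barcodes. They were 1557 against 3097 for ependymal-like and 1597 against 2734 for mural-like barcodes.

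Mitochondrial UMIs were lower too in most classes. That they differed by less than nuclear UMIs is set by the rule that chose the band. Microglia-like band barcodes had medians of 234 mitochondrial UMIs in SMA and 166 in Con, against 432 and 403 under 10%. Astrocyte-like barcodes had 277 and 211 against 388 and 409. OPC-like barcodes had more in the band in both libraries, with 470 and 472 in the band against 379 and 383. Over the 9 classes with 50 or more barcodes in each group and set, the median log2 ratio of band over under 10% was -2.22 in SMA and -1.83 in Con for nuclear UMIs, and -0.49 and -0.35 for mitochondrial UMIs. The direction for mitochondrial UMIs rested on how shared barcodes were treated. With the SMA copies kept the median became 0.40 in SMA, and with shared barcodes removed from Con as well, which takes away most of its deep barcodes under 10%, it became 0.22 in Con. Those for nuclear UMIs were -1.08 and -1.06 at these settings.

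**Figure D3:**
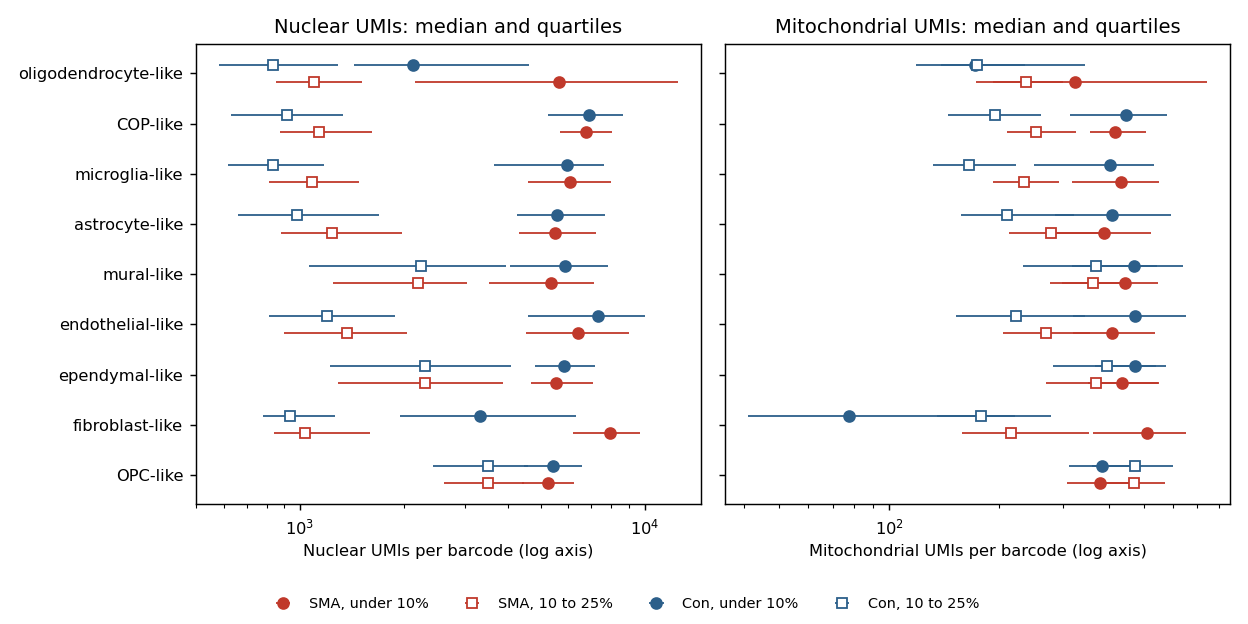
Median (symbol) and quartiles (bars) of nuclear UMIs (left) and mitochondrial UMIs (right) per barcode in 9 classes, on log axes, for barcodes of the band (open squares) and under 10% (filled circles) in SMA and Con. Nuclear medians of the band lie left of those under 10% in every class, and mitochondrial medians lie right of them in the OPC-like class of both libraries and in the oligodendrocyte-like and fibroblast-like classes of Con.

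Numbers of detected genes were close at equal depth. After each barcode was thinned to 1000 nuclear UMIs, microglia-like barcodes had a median of 567 genes in the SMA band against 620 under 10%, and 573 against 606 in Con. COP-like barcodes had 654 against 736, and 658 against 726. Endothelial-like barcodes had 654 against 657, and 659 in both sets of Con. The thinning left out 764 and 1193 of the microglia-like band barcodes as too shallow. Before it, the median over all band barcodes was 621 and 557 genes.

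The mitochondrial transcripts themselves had nearly the same make-up in the band as under 10%. These are shares of UMIs of a 3′ library, not levels per transcript length. After matching classes, mt-Cytb, encoding cytochrome b, took 20.0% of mitochondrial UMIs in the SMA band and 19.3% under 10%, and 18.9% and 18.4% in Con. mt-Co1, encoding a core subunit of complex IV (M:5328-6872 on GRCm38), took 12.4% and 13.6% in SMA (log2 -0.13) and 10.7% and 11.3% in Con (-0.08). This was the largest move among the genes above 3% of mitochondrial UMIs. mt-Nd1, of complex I, was also lower (-0.10 and -0.07), although in SMA barcodes of 1000 to 3000 nuclear UMIs it was higher by 0.23. mt-Co3 was higher by 0.05 in both libraries. The light-strand gene mt-Nd6 was rare (462 and 276 UMIs in the band) and gave log2 ratios of -0.05 in SMA and -0.40 in Con.

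Larger differences in this make-up lay between the libraries. mt-Nd4l took 0.515% of mitochondrial UMIs in the SMA band and 0.179% in the Con band, a log2 ratio of 1.53, and the ratio was 1.36 under 10%. mt-Atp8 (1.07 and 0.91), mt-Nd6 (0.95 and 0.80) and mt-Nd5 (0.68 and 0.64) were likewise higher in SMA in both sets, and mt-Co3 lower (-0.29 in both). With 1 library per group, these differences cannot be told apart from differences between the libraries.

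Nuclear genes were compared between the band and the barcodes under 10% within each library, with the classes weighted in the reference as in the band. A gene was called when it differed by 1.5-fold or more in the same direction in both libraries. Of 12955 genes with 100 or more UMIs, 62 were higher in the band (0.479%) and 1564 were lower (12.1%). The whole distribution was shifted, with the median gene at -0.20 (SMA) and -0.19 (Con) on the log2 scale. Relative to that median gene 289 genes were higher and 808 lower, and with barcodes under 5% as the reference, which left 5 classes, 268 and 979. With shared barcodes left out of both libraries 32 genes were higher, and with equal weight for each barcode 2815 were lower. Of the 62 higher genes 16, and of the 1564 lower genes 15, had the same direction in all 18 pairs of class and library.

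Immediate early genes were lower in the band. All 22 tested members were called lower in the band, against 12.1% of all genes, with a median log2 ratio of -1.62 in SMA and -1.75 in Con (-1.41 and -1.56 relative to the median gene). Fos, a component of the AP-1 transcription factor (chr12:85473890-85477273), stood at 1090 nuclear CPM in the SMA band against 3300 in the matched reference, and at 898 against 3027 in Con. Junb stood at 579 against 2146 and at 507 against 1728. Egr1 (198 against 603, and 132 against 503) and the growth arrest gene Btg2 (259 against 786, and 216 against 794) behaved alike. Egr3 was the lowest of the list, at log2 -2.31 and -2.93. By class the list's median ran from -2.36 and -2.82 in microglia-like barcodes and -1.77 and -1.62 in astrocyte-like barcodes to -0.07 and -0.28 in OPC-like barcodes. In oligodendrocyte-like barcodes it was -1.06 over 7 genes in SMA and 0.49 over 5 genes in Con, with Fos at 0.50 (0.23 to 0.77) in Con. Per barcode, microglia-like barcodes held 4.99 immediate early UMIs in the SMA band against 128 under 10%, and 3.47 against 131 in Con.

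Several of the genes of lowest ratio encode inflammatory proteins, a group read from these 12 genes and not from a list. Among the 12 genes with the lowest mean log2 ratio were the cytokines Tnf and Il1b, the chemokines Cxcl2, Ccl3, Ccl4 and Ccl7, the inflammasome sensor Nlrp3 and Nfkbid, a regulator of NF-kappaB. The others were Egr3, H2-Q6, Gm6377 and Gm27010, and H2-Q6 and Gm27010 had 5 or fewer UMIs in either band. Tnf (chr17:35199381-35202007) stood at 30.5 nuclear CPM in the SMA band against 217 in the matched reference (log2 -2.83), and at 13.4 against 127 in Con (-3.23). Ccl4 stood at 318 against 1641 (-2.37) and at 89.1 against 817 (-3.20). Il1b stood at 59.4 against 327 and at 21.4 against 151. In microglia-like barcodes Tnf stood at 90.6 nuclear CPM in the SMA band against 751 under 10%, and at 53.6 against 672 in Con. Over all 18 pairs of class and library, Tnf, Cxcl2 and Ccl7 were higher in the band in 8. Ccl3, Ccl4 and Nfkbid were higher in 9, Nlrp3 in 10 and Il1b in 11. In astrocyte-like barcodes Tnf was at 5.55 in the band and 1.86 under 10% of SMA, on 15 UMIs each. Cxcl2 in Con rests partly on 1 barcode, which held 23.7% of its band UMIs.

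Over the 9 classes Malat1 and Neat1 were lower, while other nuclear RNAs were not uniformly so. Malat1 (chr19:5795690-5802672, minus strand) stood at 11187 nuclear CPM in the SMA band against 24047 in the matched reference (log2 -1.10), and at 11133 against 22349 in Con (-1.01). Neat1, which builds paraspeckles, stood at 81.1 against 314 and at 63.4 against 292. The imprinted antisense RNA Kcnq1ot1 was also called lower (-1.03 and -1.39). Meg3 (0.05 and -0.21), Miat (-0.21 and -0.79) and Pvt1 (-0.12 and -0.56) were not called, and Rian was higher by 0.73 and 0.47 and not called. Of the 7 tested RNAs 3 were thus lower, beside 12.1% of all genes, with list medians of -0.21 and -0.79. Whether counting used strand is not given in the sources used here. Whether an antisense RNA and its partner were counted apart was not checked.

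Malat1 varied between classes and between barcodes of a class. Its summed level was higher in the band in fibroblast-like barcodes of SMA (log2 0.25, 0.17 to 0.34) and close in endothelial-like barcodes of Con (-0.03, -0.07 to 0.01), although the medians over barcodes were lower in the band there too, at 7792 against 8950 and 3342 against 9549 nuclear CPM. In astrocyte-like barcodes its median was 1330 nuclear CPM in the SMA band against 39323 under 10%, and 2132 against 32898 in Con. The upper quartile of the band was 4340 and 5277, still under the lower quartile of 23356 and 18983 under 10%. In microglia-like barcodes the medians were 931 against 9140 and 1709 against 8388. Ependymal-like barcodes differed less, at 13216 against 20315 and 12565 against 17794, while OPC-like barcodes had 11797 against 18056 and 6375 against 14986. No Malat1 UMI was found in 35.0% of microglia-like band barcodes of SMA and 21.7% of those of Con, against 3.44% and 4.74% under 10%, at median depths of 1086 and 835 against 6065 and 5953 nuclear UMIs.

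**Figure D4:**
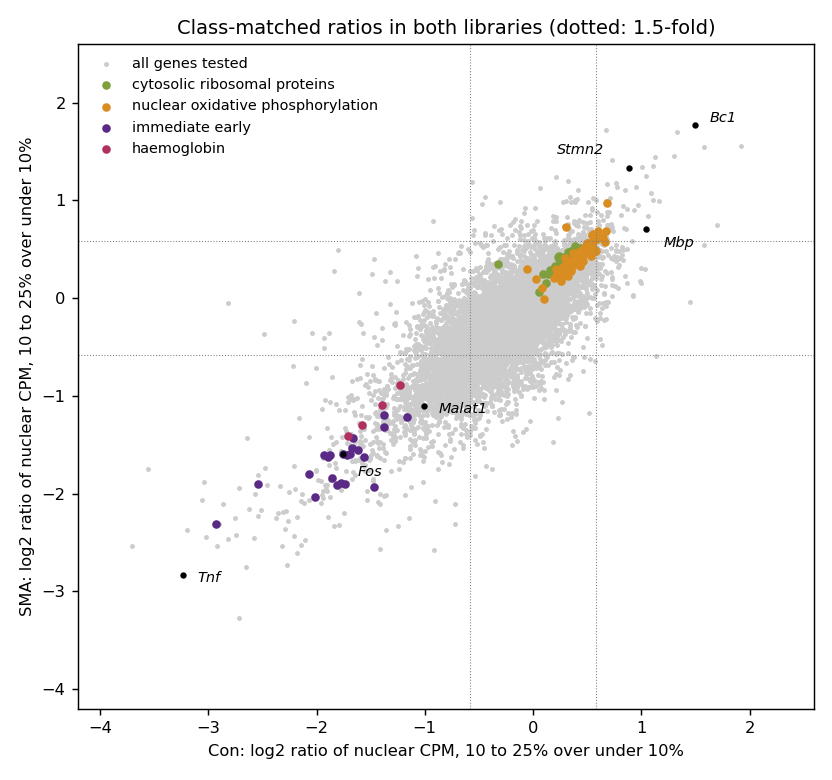
Log2 ratio of nuclear CPM in the band over the class-matched barcodes under 10% for each of 12955 genes, Con on the horizontal and SMA on the vertical axis, with 4 gene lists coloured and dotted lines at 1.5-fold. Immediate early and haemoglobin genes lie at the lower left in both libraries, and genes of oxidative phosphorylation and cytosolic ribosomal proteins at the upper right, mostly inside the dotted lines.

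Genes of the respiratory chain encoded in the nucleus were mostly higher, by less than 1.5-fold. Of 85 tested members 84 were above 0 in each library, with medians of 0.45 in SMA and 0.44 in Con (0.65 and 0.63 relative to the median gene). Only 6 reached 1.5-fold in both libraries, against 0.479% of all genes, and none was called lower. Cox8a, a subunit of complex IV, stood at 2453 nuclear CPM in the SMA band against 1526, and at 1981 against 1303 in Con. Cox6a1 (log2 0.61 and 0.59), Uqcr10 (0.63 and 0.63) and Uqcr11 (0.62 and 0.65) were similar. The remaining called members, Cox4i2 and Ndufa4l2, are forms found mainly in pericytes and were higher in 13 of 18 class and library pairs, fewer than the 18 of Cox8a. By class the list's median was highest in microglia-like barcodes (0.84 in both libraries) and lowest in OPC-like (0.12 and 0.15) and ependymal-like (0.17 and 0.10) barcodes. Per barcode the list was lower, at 54.8 against 147 UMIs in microglia-like barcodes of SMA and 37.6 against 118 in Con.

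Cytosolic ribosomal protein genes went the same way, though none of the 82 tested was called, beside 0.479% of all genes called higher and 12.1% lower. Their medians were 0.38 and 0.31, with 82 above 0 in SMA and 81 in Con, and their summed level in SMA was 158119 nuclear CPM, against 120392 in the matched reference. Rpsa (0.52 and 0.43) and Rplp1 (0.54 and 0.39) were among the highest. Mitochondrial ribosomal proteins had medians of 0.16 and 0.17 over 78 genes and glycolysis genes 0.21 and 0.22 over 15. In glycolysis the lactate dehydrogenase subunit Ldhb (0.54 and 0.56) and Aldoc, an enzyme marking astrocytes (0.45 and 0.49), lay at the top. Hexokinase 2, Hk2, was the single called member and was lower (-1.34 and -1.56), 1 of 15 beside 12.1% of all genes.

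Factors of mitochondrial DNA expression lay near the median gene. None of 25, among them Tfam, Polrmt and Lrpprc, was called, beside 0.479% of all genes called higher and 12.1% lower, and their medians of -0.22 and -0.14 were close to those of all genes. Among 18 genes of mitochondrial dynamics and mitophagy, Pink1, the kinase that marks damaged mitochondria, was called higher, beside 0.479% of all genes. It stood at 131 nuclear CPM in the SMA band against 84.4 and at 139 against 89.6 in Con, and was higher in 18 of 18 class and library pairs. Fis1 had log2 ratios of 0.37 and 0.36, and the fission gene Dnm1l -0.54 and -0.19.

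Stress and death programmes had no member called higher, where 0.479% of all genes were, and their counts of lower members stand beside 12.1% of all genes. In the integrated stress response 4 of 13 were lower, Atf4 (log2 -0.94 and -0.98), Herpud1, Ddit4 and Gdf15. In the heat shock list 3 of 13 were lower, Dnajb1 (-1.07 and -1.11), Hspb1 and Hspa1a, whereas the mitochondrial chaperonin Hspe1 was at 0.32 and 0.26. In the apoptosis list 3 of 19 were lower, Pmaip1 (-1.91 and -1.92), Mcl1 (-1.43 and -1.29) and Bcl2l11 (-1.24 and -1.20). Bax was at 0.23 and 0.21 and Cycs, encoding cytochrome c, at 0.35 and 0.37. In the p53 target list 3 of 13 were lower, Cdkn1a (-0.94 and -1.42), Plk2 and Mdm2. Of 24 chaperones and translocon genes of the endoplasmic reticulum 2 were lower, Hspa5 (-0.71 and -0.62) and P4hb. Among DNA replication genes 2 of 20 were lower, Dtl and Cdc6, and among genes of mitosis 1 of 22, Kif23. The median of the mitosis list was -0.44 in SMA and 0.15 in Con, and its sign in each library depended on the setting. None of the 8 tested genes of the SMN complex was called.

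Neuron-like barcodes (49 and 21 in the band) took no part in the comparison. The 12 genes with the highest mean ratio nevertheless included genes known from neurons, which were not chosen as a list, whereas the 14 neuronal markers were higher in 7 of 9 classes of SMA and 4 of 9 of Con. The genes known from neurons were Sncb and Sncg of the synuclein family, the neurofilament Nefl, Stmn2, a regulator of axonal microtubules, the synaptic Cplx1, the calcium-binding Calb2, and Bc1, a short cytoplasmic RNA of neurons. The others were Ctxn2, Rell2, Crabp1, Ddc and Abcc9, a channel subunit of pericytes. Bc1 (chr7:144914470-144914637) stood at 66.2 nuclear CPM in the SMA band against 19.4 in the matched reference (log2 1.77), and at 37.1 against 13.1 in Con (1.497). Stmn2 stood at 113 against 44.7 and at 64.0 against 34.5. Nefl stood at 20.0 against 6.11 and at 12.03 against 4.77. Bc1, Ctxn2 and Sncb were higher in all 18 pairs of class and library, whereas Abcc9 was higher in 12. In 3 classes compared at like depth, described with the steps along the band, the ratios of Bc1 were 0.36 in SMA and 0.23 in Con.

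Mbp, encoding myelin basic protein, was higher outside the myelinating classes as well. Its ratios were much smaller in the classes compared at like depth, described with the steps along the band. In microglia-like barcodes it stood at 2167 nuclear CPM in the SMA band against 490 under 10%, and at 3415 against 762 in Con. In astrocyte-like barcodes it stood at 1353 against 463 and at 2027 against 715. Per barcode, microglia-like barcodes held 2.86 Mbp UMIs in the SMA band against 3.15 under 10%, and 3.52 against 4.45 in Con. Outside the oligodendrocyte-like and COP-like classes this count ran from 5.18 against 1.59 in fibroblast-like to 4.69 against 7.67 in mural-like barcodes of Con. In oligodendrocyte-like barcodes of SMA it was 36.9 against 167, and in COP-like barcodes of Con 11.1 against 22.4. Bc1 had 0.0953 against 0.107 UMIs per microglia-like barcode of SMA and 0.0525 against 0.0786 in Con. These counts per microglia-like barcode differed less between the sets than the median nuclear totals, which differed 5.58-fold and 7.13-fold.

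Whole marker lists of other cell types were read in the same way. All 12 oligodendrocyte markers were detected in the 7 compared classes other than the oligodendrocyte-like and COP-like ones (the OPC-like precursors included), and their sum was higher in the band in 7 of 7 classes of each library. It ran from 1177 to 3095 nuclear CPM in the SMA band against 709 to 1225 under 10%, and from 1909 to 7989 against 713 to 2049 in Con. The 13 astrocyte markers were higher in 8 of 8 other classes of each library, with medians of 2094 against 947 and 2072 against 848 nuclear CPM. The 14 neuronal markers were higher in 7 of 9 classes of SMA (median 300 against 155) and in 4 of 9 of Con (median 228 against 268). The 12 microglial markers were higher in 6 of 8 other classes of each library, with medians of 643 against 496 and 522 against 442. The 7 erythroid markers were higher in 2 of 9 classes of each library, with medians of 182 against 220 and 283 against 282. The part of RNA from other cells in the ratios of nuclear genes was not tested.

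Haemoglobin genes went against this pattern. All 4 were called lower over the 9 classes, beside 12.1% of all genes, with medians of -1.20 and -1.49. Hbb-bs stood at 3747 nuclear CPM in the SMA band against 9201 and at 6629 against 19799 in Con. With each barcode weighted equally the medians were -0.26 and -0.64 and none was called. By class the list's median was -3.13 (SMA) and -1.81 (Con) in mural-like, -0.33 and -1.96 in astrocyte-like and 2.27 and 0.57 in fibroblast-like barcodes.

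Along the band, several differences were larger at a higher mitochondrial share, whereas others were not. Over 8 classes the median of the immediate early list was -1.09, -2.96 and -3.52 in SMA at shares of 10 to 15%, 15 to 20% and 20 to 25%, and -1.29, -2.82 and -3.19 in Con. Malat1 was at -0.59, -2.21 and -2.70 in SMA and at -0.65, -1.82 and -1.98 in Con. Bc1 was higher at each step, with 1.27, 2.23 and 2.31 in SMA and 0.93, 1.91 and 2.31 in Con. The oxidative phosphorylation list stood at 0.29 in the lowest and 0.66 in the highest step of SMA, and at 0.34 and 0.61 in Con. The larger change lay between 10 to 15% and 15 to 20% in each of these series. Haemoglobin had no such order, with -1.60, -0.73 and -1.06 in SMA and -1.68, -1.24 and -1.61 in Con, and the mitosis list of SMA was nearer 0 at each step (-0.49, -0.35 and -0.18). The median of all genes also moved, from -0.09 to -0.41 in SMA and from -0.10 to -0.37 in Con, as did the median nuclear depth, from 1920 to 792 and from 1280 to 636 UMIs.

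**Figure D5:**
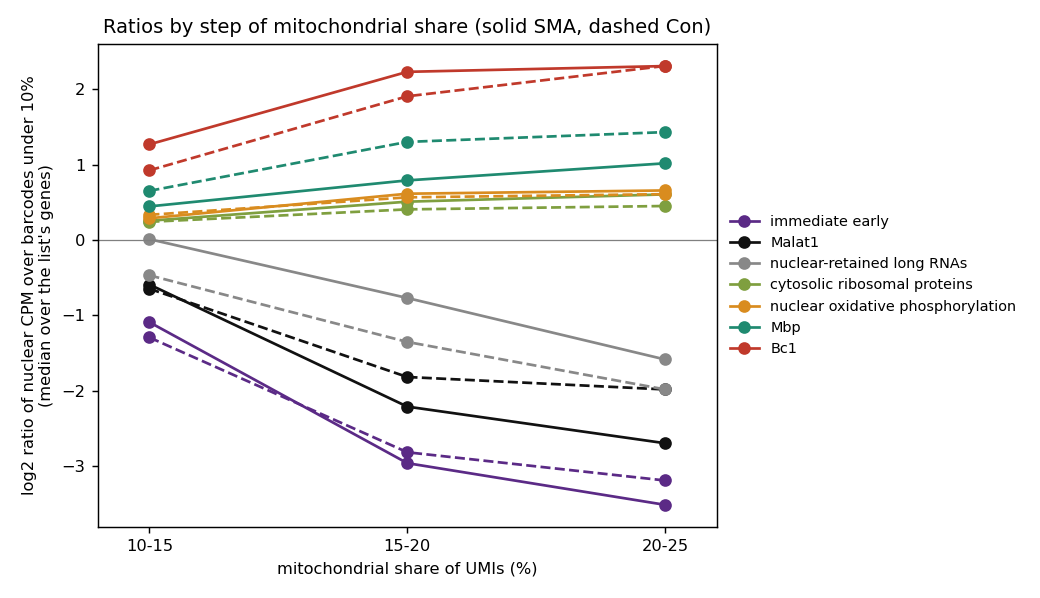
Log2 ratio of nuclear CPM over class-matched barcodes under 10% at 3 steps of mitochondrial share within the band, as the median over each list's genes or for single genes, in SMA (solid) and Con (dashed). Immediate early genes and Malat1 lie lower at each step, to -3.52 and -2.70 in SMA, and Bc1 and Mbp higher.

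Depth and mitochondrial share moved together, so the lists were also compared at like depth, a choice made after the data were seen. Barcodes of 1000 to 3000 nuclear UMIs were numerous enough in 3 classes only, the microglia-like, astrocyte-like and OPC-like ones. Of 3770 genes tested there, 16 were higher in the band (0.424%) and 155 lower (4.11%), whereas in the same 3 classes at any depth 96 of 11842 were higher (0.811%) and 1906 lower (16.1%). All 18 immediate early genes tested were called lower at like depth, against 4.11% of all genes, with medians of -1.79 in SMA and -2.04 in Con (-1.95 and -2.13 in these classes at any depth). Malat1 was at -1.87 and -1.47 (-1.14 and -1.05 at any depth). Bc1 was at 0.36 and 0.23 (1.78 and 1.48), and Mbp at 0.14 and 0.65 (1.76 and 1.67). Oxidative phosphorylation was at 0.29 and 0.33 with no member called (0.50 and 0.52), and the median of all genes at 0.0017 and 0.016.

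The make-up of the band differed between SMA and Con for several classes. COP-like barcodes were 3.32% of the band in SMA and 8.09% in Con (log2 -1.28, interval -1.47 to -1.10), and 3.34% against 5.25% under 10% (-0.65). Ependymal-like barcodes, the ciliated cells lining the central canal, were 2.87% against 1.28% (1.16), and 1.69 under 10%. Microglia-like barcodes were 21.1% against 15.9% (0.41, interval 0.32 to 0.49), and 0.69 under 10%. Astrocyte-like barcodes turned direction, with 17.9% against 22.2% in the band (-0.31) and 0.28 under 10%. Unnamed barcodes were 4.49% of the SMA and 19.6% of the Con barcodes under 10%, which moves the ratios there. Among named barcodes only, the astrocyte-like ratios in the band and under 10% were -0.21 and 0.03. The microglia-like ones were 0.51 and 0.44, the COP-like ones -1.18 and -0.90, and the ependymal-like ones 1.26 and 1.44. Oligodendrocyte-like barcodes were 6.11% against 6.55% of the band (-0.10, interval -0.26 to 0.06), a difference within counting error. Mural-like (-0.54, and -0.93 under 10%), fibroblast-like (-0.69 and -2.54) and Schwann-like (-1.75 and -0.70) barcodes were lower in SMA in both sets. With the SMA copies of shared barcodes kept, the mural-like ratio of the band became 0.064 (-0.16 to 0.29). The few neuron-like barcodes (49 and 21) were higher (1.68, 0.94 to 2.42).

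Smn1 did not differ clearly between the libraries in the band. Over the named classes it had 435 UMIs in SMA and 498 in Con, or 50.9 and 45.2 nuclear CPM, a log2 ratio of 0.17 (-0.02 to 0.36), and 0.15 (0.07 to 0.24) under 10%. The 3′ tags are summed over the whole gene (chr13:100124852-100137690) and may lie outside the altered part, so this count does not check the genotype labels. The Y-linked Ddx3y (1.37) and Eif2s3y (1.00) were higher in SMA.

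Gene differences between the libraries were read in 4 classes, as ratios of 1.5-fold or more among genes with 100 or more UMIs in the band. In astrocyte-like band barcodes 133 of 6546 genes were higher in SMA (2.03%) and 242 lower (3.7%). In microglia-like barcodes 132 of 4196 were higher (3.15%) and 115 lower (2.74%). In COP-like barcodes 1.73% of 2254 genes were higher and 3.5% lower, and in oligodendrocyte-like barcodes 3.02% of 2222 each way. Replicates would be needed to set these shares against the spread between animals.

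Cdkn1a, encoding the cell cycle inhibitor p21, was higher in SMA. In astrocyte-like barcodes of the band it stood at 198 nuclear CPM in SMA and 46.4 in Con (log2 2.09, 1.85 to 2.33), and in microglia-like barcodes at 126 and 33.7 (1.91, 1.51 to 2.32). Under 10% the ratios were 1.90 and 0.64. Of the p53 target list 5 of 10 tested genes were higher in astrocyte-like barcodes, against 2.03% of all genes, and none lower. They were Cdkn1a, Ccng1, Phlda3, Trp53inp1 and Zmat3, and the list's median was 0.62 (0.44 under 10%). In microglia-like barcodes 3 of 5 were higher, against 3.15% of all genes, with a median of 0.90 (0.34 under 10%), which became 0.32 when barcodes with under 1000 nuclear UMIs were left out. The histone gene Hist1h2bc was at 475 and 172 nuclear CPM over the named band barcodes (log2 1.46) and higher in 8 of 8 classes tested, and at 1.94 under 10%.

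The 4 haemoglobin genes were all lower in SMA in COP-like (median log2 -1.09), microglia-like (-0.97) and oligodendrocyte-like (-1.10) band barcodes, against 3.5%, 2.74% and 3.02% of all genes, and none was called in astrocyte-like ones (-0.42). In astrocyte-like barcodes 5 of 16 mitosis genes were lower in SMA, Mki67, Ccnb1, Cdc20, Hmmr and Plk1, against 3.7% of all genes. In microglia-like barcodes 4 of 19 immediate early genes were higher, against 3.15% of all genes, with a median of 0.23 that turned to -0.085 in barcodes with 1000 or more nuclear UMIs. Nuclear oxidative phosphorylation had a median of 0.11 in both classes. Some large ratios rested on single barcodes. Ptgds in fibroblast-like barcodes of SMA had 84.3% of its 1525 UMIs in 1 barcode and the 140 UMIs of Ttr in oligodendrocyte-like barcodes of SMA all came from 1 barcode.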

How the data were processed

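The deposited files held raw UMI counts per gene and barcode, which the authors made with Cell Ranger (4.0.0 per the file headers) from 10x Genomics 3′ version 3 libraries, with mm10 and Seurat 3.2.2 named in the submitters' processing notes. Counts were not normalized and barcodes had been filtered before deposit. Library totals were 85872075 (SMA) and 97894084 (Con) UMIs over 32285 genes. Groups were taken from the labels. The members and gene lists were chosen with earlier results of these data known.

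Barcodes under 25% mitochondrial share were clustered jointly in Python 3.11.15 (scikit-learn 1.9.0, leidenalg 0.10.2, igraph 0.11.9) on 2000 variable genes, 30 principal components and 20 neighbours at resolution 1, without mitochondrial, ribosomal and list genes. A cluster was named from markers detected in 10% of its cells at 2-fold or more, with 3 or more required. A median ribosomal share over 30% left a cluster unnamed. Class medians were compared where each set held 50 or more barcodes. Doublets were treated only by the limit of 4000 genes.

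UMIs were summed per class and library and expressed per 1000000 nuclear UMIs (nuclear CPM). Ratios of the band over under 10% used 9 classes, with class weights of the band, and genes with 100 or more UMIs. Counts of 0 were read as allowing up to 3. Shares have exact Clopper-Pearson intervals, and SMA over Con ratios of class shares have normal intervals on the log2 scale. UMI ratios printed with an interval have exact conditional binomial ones (scipy 1.17.1, numpy 2.4.6). Scripts were tested on simulated counts. The rule for named genes took the 12 called genes of highest and of lowest mean ratio, the 3 highest and 3 lowest SMA over Con ratios of each class, Smn1, the 13 mitochondrial genes, and from each list the called and the most abundant members. Other genes named were chosen after their values were seen. No p-value was computed, as each group was 1 library. Coordinates of 76 of 76 genes looked up came from GENCODE M21 (GRCm38). Alternatives changed the treatment of shared barcodes, the limits, the class naming, the gene filter and the weighting.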

Additional observations from a re-analysis of the deposited data

Results flagged for a closer look

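Some results went opposite ways in the 2 libraries, and these differences were not tested, since each group was 1 library. The median log2 ratio of the mitosis list, band over under 10%, was -0.44 in SMA and 0.15 in Con. These signs depended on the setting. Con turned to -0.016 against barcodes under 5% and to -0.089 at clustering resolution 2, and SMA to 0.017 in barcodes of 1000 to 3000 nuclear UMIs. The log2 ratio of median mitochondrial UMIs was -1.23 in SMA and 1.20 in Con for fibroblast-like barcodes, where 70.5% of the Con reference lay in a cluster with nearly no SMA barcodes, and -0.45 and 0.021 for oligodendrocyte-like barcodes, where the reference held 73 and 130 barcodes. Barcodes with shares of 25% or more, which enter no comparison, held oligodendrocyte markers at 8060 (SMA) and 14216 (Con) nuclear CPM, against 7131 and 10239 over the band and 3609 and 4449 under 10%.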

How the results depend on the processing

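Each group was 1 library, so no replicate could be left out. No paired analysis was possible because each group was 1 library and no test was run. Of 2595 values recomputed for 248 results, 1673 kept their direction and size (within 0.1 on the log2 scale or within the counting interval), 889 moved and 33 changed sign. The causes were not tested. Percentages below are shares of barcodes in the band, and other values log2 ratios of the band over the reference unless said otherwise.

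With the SMA copies of shared barcodes kept, the SMA share was 36.4%, that of oligodendrocyte-like barcodes 60.3%, the nuclear UMI ratio -1.08, the mitochondrial UMI ratio 0.40 and the mural-like share ratio of SMA over Con 0.064. With shared barcodes left out of both libraries, the Con share was 64.3%, the OPC-like share 26.5%, the oligodendrocyte-like share 89.3%, the nuclear ratio -1.06, the mitochondrial ratio 0.22 and the ependymal-like share ratio of SMA over Con 1.63. At that setting 32 genes were higher, 1032 class and gene pairs were higher in SMA (644 otherwise), and in Con the S phase list was at 0.15, the SMN complex at 0.16 and Crabp1 at -0.16, while 4833423E24Rik in astrocyte-like barcodes was at 0.58 for SMA over Con.

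A band of 10 to 20% gave 28.0% (SMA) and 34.5% (Con), oligodendrocyte-like shares of 82.7% and 80.5%, a nuclear ratio of -1.99 in SMA and a mitochondrial one of -0.22 in Con. Barcodes with 1000 or more nuclear UMIs alone gave 38.0% and 33.9%, oligodendrocyte-like shares of 81.3% and 72.0%, an ependymal-like share ratio of 0.81, 927 lower genes, and -0.085 for immediate early genes of SMA over Con in microglia-like barcodes. Against barcodes under 5%, the nuclear ratios were -2.53 and -2.70 and the mitochondrial ones -0.19 and -0.48, with 268 genes higher and 979 lower. In Con the medians were then 0.010 for all genes, 0.043 for mitochondrial DNA expression, 0.065 for ER chaperones, 0.088 for heat shock, -0.016 for mitosis and 0.21 for the SMN complex.

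Class by nearest neighbours gave nuclear ratios of -2.11 and -1.65, a mitochondrial ratio of -0.22 in Con, OPC-like shares of 10.8% and 10.6% and an oligodendrocyte-like share of 82.5% in Con. At resolution 2 the mitochondrial ratios were -0.63 and -0.97, the nuclear ratio of Con -2.52, OPC-like shares 29.8% and 34.9%, oligodendrocyte-like shares 79.2% and 72.7%, the mitosis list of Con -0.089, and Ddc -0.45 and -0.68.

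In barcodes of 1000 to 3000 nuclear UMIs, chosen after seeing the data and filled in 3 classes only, mt-Nd1 in SMA was at 0.23, the largest move of an abundant mitochondrial gene there. Genes higher numbered 16 and lower 155, the median gene was at 0.0017 and 0.016, mitochondrial DNA expression at 0.0094 and 0.22, the mitosis list of SMA at 0.017, and in Con ER chaperones at 0.029, heat shock at 0.042, apoptosis at 0.016, S phase at 0.38 and the SMN complex at 0.36. Leaving out oligodendrocyte-like and COP-like barcodes, also chosen after seeing the data, changed the sign of none of the values recomputed, of which 31 moved and 95 did not. The microglia-like, astrocyte-like and OPC-like classes alone, at any depth, gave 96 higher genes and changed no sign.

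A minimum of 50 UMIs per gene gave 95 higher genes, and 1804 and 2252 class and gene pairs higher and lower in SMA (644 and 887 otherwise). A minimum of 300 gave 33, 164 and 198. Centring on the median gene gave 289 higher and 808 lower genes, with mitochondrial DNA expression of Con at 0.055, ER chaperones of Con at 0.029, p53 targets of SMA at 0.077, S phase of Con at 0.071 and the SMN complex of Con at 0.058. Equal weight for each barcode gave 2815 lower genes.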

Other observations

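Single genes beyond the upper limit have not been given above. Malat1 summed over all barcodes stood at 3172 nuclear CPM in SMA and 5063 in Con at shares of 20 to 25%, and at 4832 and 9207 at 25% or more. Bc1 stood at 124 and 71.2 nuclear CPM at 20 to 25% and at 167 and 99.5 at 25% or more. Gm42418, which overlaps ribosomal RNA and whose counts are uncertain for that reason, stood at 906 and 795 nuclear CPM over the band, 434 in both libraries under 10%, and 1396 and 1439 at 25% or more.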
